A study of Petromyzon marinus with 4 samples.

Results

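The LOC116939582 cells are larval gonad barcodes of the sea lamprey (Petromyzon marinus) that carry RNA of LOC116939582, a gene with no annotated name, together with other genes that mark them. They were chosen by a rule on their own counts. A barcode was called with at least 250 genes and at or above a set minimum of counts, about 5 times the 374 counts that barcodes without cells had at the median in the male transformer, the highest of the libraries. A called barcode was a member with at least 1 count of LOC116939582 and with at least 2 of 5 further genes detected, namely LOC116942455, LOC116940515, LOC116940263, LOC116943825 and BAG2. It also had 0 counts of LOC116938687, fewer than 4 counts of COL6A1 and COL6A2 together, and MIOX below 2000 CPM, which are counts scaled to a common total of 1000000. The last 3 conditions keep out 3 other larval groups: cells with LOC116938687, cells rich in collagen VI chains, and tubule cells rich in MIOX, an enzyme of inositol breakdown that marks kidney tubules. Of 40246 called barcodes in the larval libraries, 4537 met the rule and 35709 did not. The whole series held 111067 called barcodes.

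The study measured RNA of single cells from gonads of wild-type, wild-caught animals of unknown age, 1 library per sample and no treatment. Larval libraries 1 and 2 are titled as biological replicates of undifferentiated gonads, with sex not determined, and 1 further library each came from a female and from a male transformer, an animal past metamorphosis with a determined sex. After dissociation and sorting for live cells, 3′ libraries were made with PIPseq, which captures cells in particle-templated droplets. The number of animals behind a library is not given, so the spread between the larval libraries may be technical.

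The larval lamprey gonad is an undifferentiated organ in which germ cells lie among somatic cells, and its sex cannot yet be seen. In vertebrate gonads the somatic cells include supporting cells, which surround the germ cells and later become Sertoli or granulosa cells, interstitial and stromal cells, which lay down matrix, the covering epithelium, and vessels. Most of the genes that separate the LOC116939582 cells have only a LOC number in the files and in the gene table, so no role is given for them; roles of genes with a symbol are those known in other vertebrates.

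Library totals over all barcodes ran from 239024376 counts (larva 1) to 406358335 (male transformer), and called barcodes had medians of 4714 to 7475 counts. Larval libraries 1 and 2 shared 6 called barcode sequences, 1 of which met the rule in both, and other pairs of libraries shared 6 to 13. Levels are given as CPM of the summed counts of a set of barcodes in 1 library, and intervals cover counting error only. Since the rule chose the cells on their own counts, their difference from other barcodes is a description and has no test.

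The cells made up similar shares of both larval libraries, with overlapping intervals. In larva 1 there were 2206 of 19654 called barcodes, 11.2% (exact 95% binomial interval 10.8 to 11.7), and in larva 2 there were 2331 of 20592, 11.3% (10.9 to 11.8). The mean share was 11.3% ± 0.0677 (SD, n = 2). LOC116939582 itself was found in 4273 called barcodes of larva 1 and 4444 of larva 2. Requiring 2 further genes left 3315 and 3443, no LOC116938687 left 2971 and 3070, and the limit on collagen VI left 2218 and 2333. The MIOX limit gave the final 2206 and 2331.

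The LOC116939582 cells were deeper than the barcodes around them. Their median was 8183 counts and 1707 genes in larva 1, against 5098 counts and 1249 genes in the other called barcodes. In larva 2 it was 8974 counts and 1767 genes, against 5523 counts and 1277 genes. The median mitochondrial share was 1.31% in LOC116939582 cells and 1.31% in other barcodes of larva 1, and 1.28% and 1.30% in larva 2. The share moved with depth. With the rule applied after every barcode was thinned to the count minimum, the mean share was 6.94%. A minimum 2 times as high gave 14.8%.

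The gene that leads the rule was at a low level in absolute terms. LOC116939582 stood at 344 CPM in LOC116939582 cells and 51.7 in other barcodes of larva 1, and at 315 and 43.3 CPM in larva 2. The median member held 2 counts in both libraries, and the highest held 106 counts in larva 1 and 72 in larva 2. A single count was all that 33.6% of the members of larva 1 and 33.1% of those of larva 2 had, while 29.5% and 29.4% had 5 or more. After thinning, 53.3% of members and 5.71% of other barcodes still had a count in larva 1, and 51.2% and 5.28% in larva 2. Free RNA carried the gene too, since barcodes without cells (ranks 40000 to 80000 by counts) held it at 60.4 CPM in larva 1 and 54.7 in larva 2. The tubule gate, all barcodes with MIOX at 2000 CPM or more, held it at 6.88 and 2.42 CPM. There 4.63% and 2.98% of barcodes had a count, 0.868% and 0.812% after thinning, at median depths of 15998 and 16596 counts. How many members with 1 count owe it to free RNA was not tested.

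The further genes of the rule were higher in the members as well, as the rule required in part. LOC116940515 was by far the most abundant of them, with 4681 CPM in LOC116939582 cells and 2213 in other barcodes of larva 1, and with 4228 and 2032 CPM in larva 2. It was detected in 99.3% of members in both libraries, against 59.9% and 55.8% of other barcodes. LOC116943825 stood at 399.6 CPM in members against 107 in other barcodes (larva 1) and at 412 against 102 (larva 2). LOC116942455 stood at 377 against 125 and 308 against 106 CPM, and LOC116940263 at 575 against 271 and 539.5 against 253. BAG2, a co-chaperone of HSP70 proteins and the only one of the 5 with a symbol, stood at 54.6 against 22.4 CPM and 50.5 against 15.7. It was a marker of few cells: 15% of members of larva 1 and 14.6% of those of larva 2 had a count, against 5.36% and 4.52% of other barcodes.

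**Figure D1:**
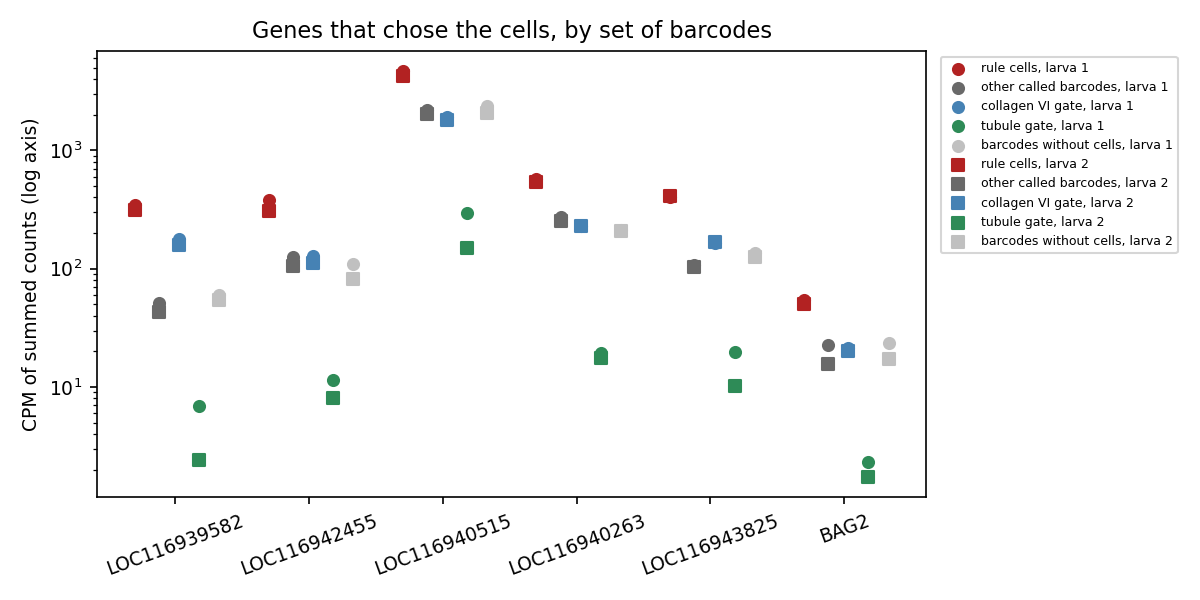
CPM of the 6 genes that must be present, on a log axis, in LOC116939582 cells ("rule cells"), other called barcodes, the collagen VI and tubule gates, and barcodes without cells, in each larval library. LOC116939582 stands at 344 and 315 CPM in the cells it chose, at 176 and 159.8 in the collagen VI gate and at 6.88 and 2.42 in the tubule gate, while barcodes without cells lie near the other called barcodes.

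Most members had more than the 2 further genes that the rule required. All 5 further genes were found in 7.30% of members of larva 1 and 8.58% of those of larva 2, 4 of them in 53.4% and 52.6%, 3 in 27.2% and 27.0%, and only 2 in 12.1% and 11.9%. Depth moved with this number: members with 2 further genes had a median of 5027 counts in larva 1 and 6383 in larva 2, and members with 5 had 11537 and 10974. Barcodes without cells held these genes too, with LOC116940515 at 2365 and 2066 CPM, LOC116940263 at 214 and 209, and LOC116943825 at 134 and 125. How many detections of the further genes owe to free RNA was not tested. Just outside the rule, 154 barcodes of larva 1 and 134 of larva 2 met all else with only 1 further gene. A much larger set met all else but had no count of LOC116939582, 3450 barcodes in larva 1 and 3175 in larva 2, at medians of 6159.5 and 6931 counts. These barcodes belong to the other barcodes throughout.

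LOC116939582 was not confined to the members. The collagen VI gate, barcodes with 4 or more counts of COL6A1 and COL6A2 together, held it at 176 CPM in larva 1 and 159.8 in larva 2, and 19.6% and 18.8% of its barcodes had a count after thinning. That is above the other barcodes as a whole and below the members. The same gate held LOC116943825 at 163 and 167 CPM, above the 107 and 102 CPM of all other barcodes. LOC116942455 (128 and 112 CPM) and BAG2 (21.5 and 20.02 CPM) stood there near their levels in other barcodes. The cells with LOC116938687, which the rule keeps out by that gene alone, held some of the further genes about as high as the members. LOC116940515 stood at 4681 CPM in members and 4221 in those cells in larva 1, and at 4228 and 4623 in larva 2, where it was higher in the cells with LOC116938687. LOC116940263 stood at 575 CPM in members against 478, and at 539.5 against 516. LOC116939582 was low there, at 41.8 and 41.0 CPM.

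Summed germ cell markers stood well below the germ gate in the members, while single markers differed. Summed over the 25 germ cell genes found, members held 293 CPM and other barcodes 294 in larva 1, and 271 and 297 CPM in larva 2. The germ gate, barcodes outside the members with at least 3 of 11 listed germ cell genes detected, held 628 and 633 CPM. The other barcodes hold these germ cells, and the remaining gates stood on both sides of the members. The collagen VI gate held 236 and 222 CPM, the tubule gate 103 and 100.6, and cells with LOC116952351 held 286 and 266. Cells with PLEKHS1 held 364 and 270 CPM, cells with LOC116938687 held 395 and 410, and the endothelial gate 508 and 521. After thinning, 3 or more of the 25 genes were found in 0.635% of members and 1.04% of other barcodes in larva 1, and in 0.172% and 1.30% in larva 2. SYCP3, a protein of the meiotic chromosome axis, stood at 15.1 and 19.2 CPM in members of larva 1 and 2, against 74.8 and 80.7 CPM in the germ gate. DDX4, the germ cell helicase known as vasa, stood closer to the germ gate: it had 12.4 CPM in members, 14.5 in the germ gate and 8.44 in all other barcodes of larva 1, and 10.6, 12.9 and 7.62 CPM in larva 2. MAEL, a protein of the piRNA pathway, stood at 22.4 CPM in members and 17.3 in other barcodes of larva 1, and at 18.5 and 17.2 in larva 2, against 51.8 and 52.0 CPM in the germ gate. Without thinning, 6.07% of members and 5.54% of other barcodes of larva 1 had 3 of the 11 listed genes, and 5.06% and 5.91% of larva 2. Whether these counts are free RNA was not tested.

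Markers of supporting cells gave the members no cell type. Of 28 listed genes of supporting and gonadal somatic cells, 5 were found by symbol in the files. None of the 5 (CYP19A1, EMX2, FST, WNT4 and WT1) passed a 2-fold difference in both libraries. That stands beside 0.429% higher and 5.1% lower over all measured genes, so with 5 genes it says little. Log2 ratios in both libraries were above 0 for 2 of them, WT1 and CYP19A1, and below 0 for 2, FST and WNT4. FST stood at 4.06 CPM in members against 6.69 and at 1.51 against 7.77, and WNT4 at 0.996 against 1.18 and 0.834 against 1.10. WT1, a transcription factor of the gonadal ridge and of supporting cells, stood at 9.29 CPM in members and 5.28 in other barcodes of larva 1, and at 9.48 and 5.69 CPM in larva 2. These are log2 differences of 0.82 and 0.74. The cells with LOC116938687 held WT1 at similar levels, 8.33 and 9.93 CPM. EMX2, a homeobox factor of the urogenital ridge, stood at 9.33 against 8.58 CPM and 8.06 against 8.35. The members are therefore called by their leading gene alone.

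Outside the 10 genes of the rule, 15147 genes were measured, which means that their rate over all called barcodes predicted at least 20 counts in the members of both libraries. A gene was called when it was at least 2-fold higher, or at least 2-fold lower, in the members of both libraries. By this size rule 65 genes were higher, 0.429% of those measured, and 773 were lower, 5.1%. The median log2 ratio over all measured genes was −0.04 in larva 1 and −0.08 in larva 2. Across these genes the log2 ratios of the libraries had a Pearson correlation of 0.868, a description in which genes are not independent and each library's other barcodes enter its own ratio. The median absolute difference between libraries was 0.15. Of the higher genes, 15 had a symbol, against 162 of the lower and 6006 of all measured genes.

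A single gene, LOC116944697, was more than 4-fold higher in both libraries, with 17.2 CPM in members and 3.99 in other barcodes of larva 1, and with 19.95 and 4.94 CPM in larva 2. LOC116948700 was the most abundant of the 15 leading genes, with 524 CPM in members against 150.2 in other barcodes, and 436 against 122. It was found in 57.6% of members and 13.0% of other barcodes of larva 1 after thinning, and in 56.3% and 11.3% in larva 2. LOC116958675 stood at 113 against 31.3 CPM and 132 against 30.9, and was found after thinning in 23.2% of members against 4.85% and in 27.2% against 4.47%. These are differences in breadth across cells, with 10 members holding 4.18% and 3.66% of the counts of LOC116958675.

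Not every leading gene was broad. LOC116945904 stood at 41.4 CPM in members and 3.31 in other barcodes of larva 1 and at 13.3 and 3.92 in larva 2, but 97.7% and 95.6% of its counts in members came from 10 cells. Without the 10 highest members and the 10 highest other barcodes its log2 ratio was −0.60 in larva 1 and −1.05 in larva 2. LOC116943556 was the other of the 65 with over 50% of its counts in 10 cells of a library, at 51.7% in larva 1 and 36.2% in larva 2. With the 10 highest barcodes of each gene left out, 44 of the 65 genes were still 2-fold higher in both libraries.

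Among called genes with a symbol CCK, EVPL and KCNQ1 had the largest differences. CCK, the peptide hormone cholecystokinin, stood at 17.96 CPM in members and 5.38 in other barcodes of larva 1, and at 14.8 and 4.42 CPM in larva 2, log2 differences of 1.74 in each. It was found in 9.20% of members and 2.84% of other barcodes of larva 1, and in 9.87% and 2.72% of larva 2. After thinning these shares were 3.17% against 0.757% and 3.17% against 0.630%. EVPL (envoplakin, which links intermediate filaments to desmosomes) stood at 23.4 against 7.76 CPM and 26.6 against 7.97. KCNQ1, a voltage-gated potassium channel, stood at 23.8 against 9.24 and 25.1 against 8.14.

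HES1, the transcriptional repressor that Notch receptors switch on, had 75.9 CPM in members and 32.7 in other barcodes of larva 1, and 71.1 and 30.5 CPM in larva 2. CCN2, the matricellular connective tissue growth factor, had 251 against 111 CPM and 281 against 117. After thinning CCN2 was found in 36.4% of members and 12.8% of other barcodes of larva 1, and in 40.1% and 12.8% in larva 2. CCN1, its relative, stood at 226 against 120.4 and at 179.8 against 99.9 CPM, just short of 2-fold. TGFB2, a TGF-beta ligand, stood at 13.2 against 6.11 CPM in larva 1 and 10.04 against 5.51 in larva 2, so that it passed 2-fold in larva 1 and not in larva 2.

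Small calcium and LIM-domain proteins were the most abundant called genes with a symbol. S100A1, a calcium-binding protein, stood at 2646 CPM in members and 1318 in other barcodes of larva 1, and at 2836 and 1328 in larva 2, log2 differences of 1.00 and 1.09 at the edge of the 2-fold rule. It was present after thinning in 95.1% of members and 64.1% of other barcodes in larva 1, and in 95.4% and 62.3% in larva 2. CRIP1, a small LIM-domain protein, stood at 1506 against 688 and 1803 against 766 CPM. Also called were TNFRSF17, a receptor of the TNF receptor family (165 against 75.1 and 145 against 64.9 CPM), LURAP1, AK7, an adenylate kinase, MMP17, a membrane-bound metalloproteinase, CD151, a tetraspanin, CCDC141, and the mitotic genes UBE2C and CDCA3. S100A1, CD151 and MMP17 had the smallest differences of these, with log2 values from 1.00 to 1.17. With the tubule, collagen VI, endothelial and germ gates left out of the other barcodes, the calls of CRIP1, S100A1, TNFRSF17, LURAP1, CD151 and UBE2C ended, at mean log2 ratios from 0.64 (LURAP1) to 0.98 (S100A1 and UBE2C).

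**Figure D2:**
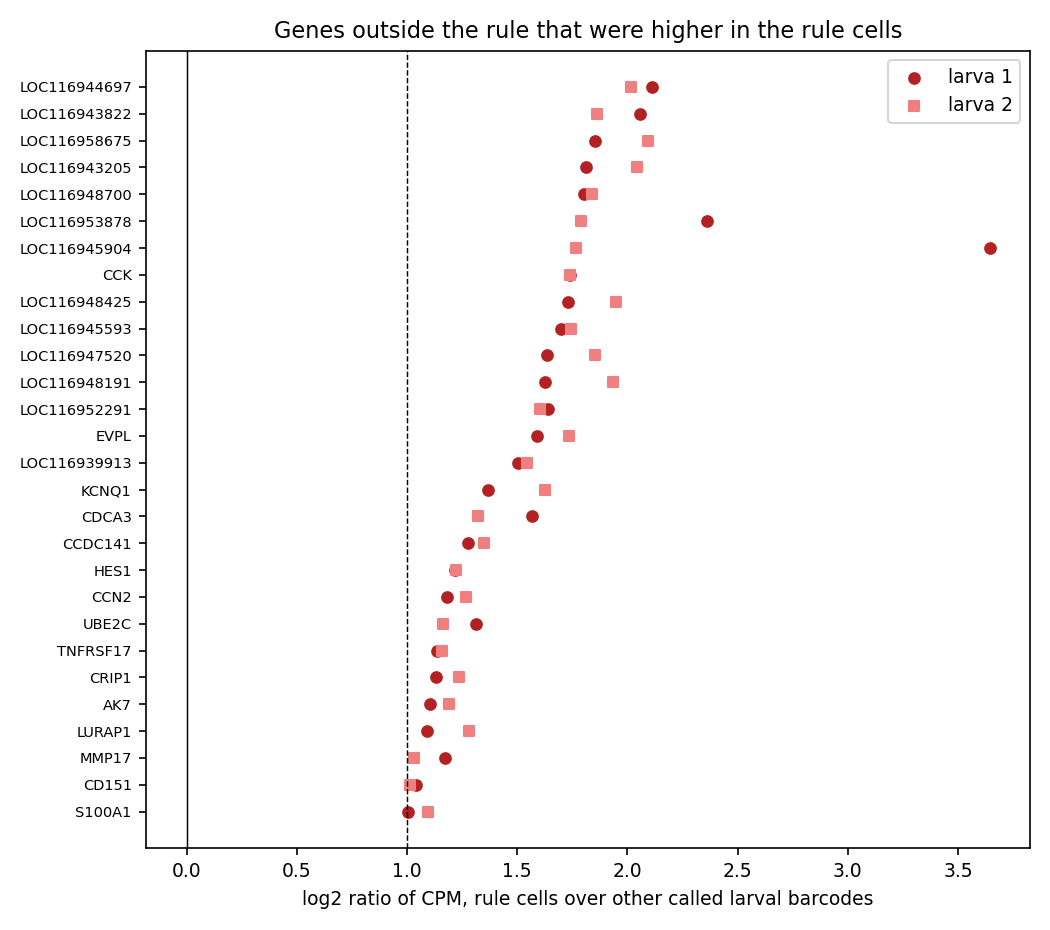
Log2 ratio of CPM, LOC116939582 cells over other called larval barcodes, for the 15 leading genes outside the rule and the called genes with a symbol, as circles (larva 1) and squares (larva 2), with a dashed line at 2-fold. The libraries lie close together for most genes; LOC116945904, at 3.64 and 1.76, shows the widest gap.

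Genes of other cell types were among those low in the members, and each count below stands beside 5.1% lower over all measured genes. Of 6 measured renal tubule genes 4 were lower: CUBN and LRP2, the large endocytic receptors of the tubule, AMN, the partner of CUBN, and FTCD, an enzyme of histidine breakdown. Below 0 in both libraries were 5 of the 6, and 1, PAX2, was above, with log2 ratios of 0.08 and 0.06. CUBN stood at 6.82 CPM in members and 42.8 in other barcodes of larva 1, and at 5.16 and 41.1 in larva 2. SLC13A1, a sodium sulphate carrier and the only gene with a symbol among the 10 lowest, stood at 10.5 against 215 CPM and 11.2 against 199. Of 112 measured solute carrier genes 15 were lower and 0 higher, beside that 5.1%, SLC47A1 and SLC15A2 among the lower. The lipid carrier protein gene APOB stood at 36.7 against 364 and 36.4 against 375 CPM. The collagen VI gate held APOB at 30.1 and 42.4 CPM and SLC13A1 at 20.5 and 15.4. Since the rule caps MIOX, low tubule genes follow from it in part.

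Stromal matrix genes were the next group. Of 6 measured stromal genes outside the rule 4 were lower and 0 higher, beside 5.1% lower over all measured genes. SPARC, a matrix glycoprotein, stood at 395 CPM in members and 993 in other barcodes of larva 1, and at 430.3 and 1003 in larva 2. Of the comparison gates only collagen VI held more SPARC than the members, at 3566 and 3951 CPM. The highest of the rest, cells with LOC116952351, held 283 and 318 CPM. After thinning SPARC was found in more members than other barcodes, 51.6% against 34.2% in larva 1 and 56.8% against 32.7% in larva 2. COL6A3, the third chain of collagen VI, stood at 10.7 against 52.0 and 10.7 against 49.98 CPM; POSTN and TWIST2 were also lower. The cap on COL6A1 and COL6A2 bears on these genes as well. Of 6 measured endothelial genes 2 were lower, beside the same 5.1%, the receptor FLT4 (2.80 against 9.25 and 3.24 against 9.05 CPM) and LMO2. LMO2 was not high in the endothelial gate itself. It stood at 2.21 and 1.85 CPM in members, 2.17 and 2.67 in that gate, and 4.79 and 4.40 in all other barcodes. Cells with LOC116952351 held it at 11.1 and 11.3 CPM and cells with PLEKHS1 at 7.08 and 6.92. Of the 6 genes 5 were below 0 in both libraries and 1, FLT1, was above, with log2 ratios of 0.03 and 0.10.

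The 773 lower genes stood highest in several kinds of other barcodes. Set against 7 comparison gates, 381 of them were highest in the tubule gate of both libraries, 124 in the collagen VI gate, 110 in cells with LOC116952351, 47 in cells with PLEKHS1, 24 in the germ gate, 20 in the endothelial gate and 5 in cells with LOC116938687. For 62 the highest gate differed between libraries. LOC116952351 itself stood at 7.63 CPM in members against 59.3 in other barcodes, and at 6.86 against 59.2. PLEKHS1 stood at 2.07 against 9.95 and 1.79 against 9.74.

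Set against single gates, most higher genes were highest in the members. Of the 65 higher genes 63 were higher in the members than in all 7 gates in both libraries. The exceptions were CCN2, at which the collagen VI gate passed the members in larva 2, and LOC116948699, at which the cells with LOC116938687 did so in larva 2. The collagen VI gate was the next highest in both libraries for 40 of the 65. Margins over that gate differed by gene. S100A1 stood at 2646 CPM in members against 2364 in larva 1 and 2836 against 2550 in larva 2. HES1 stood at 75.9 against 57.7 and 71.1 against 62.4, and LOC116943205 at 61.3 against 27.4 and 63.3 against 25.9. The whole comparison is a description of genes chosen for being high in the members.

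**Figure D3:**
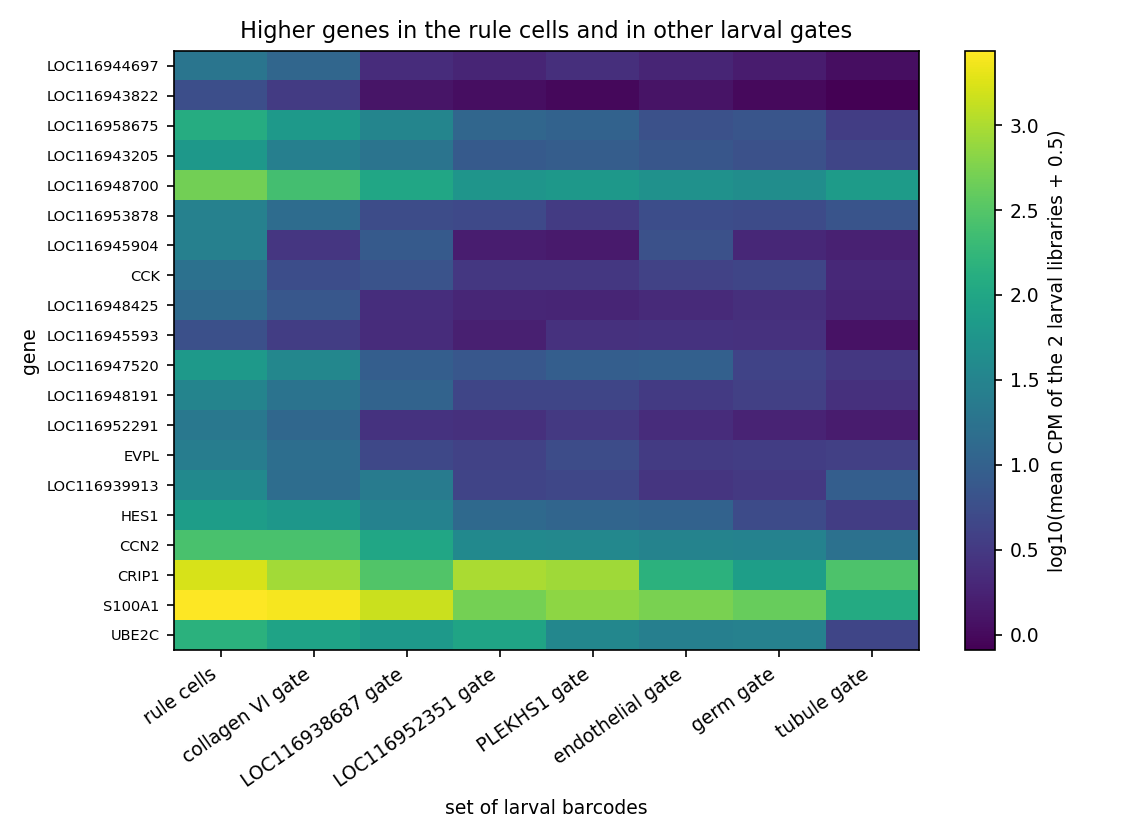
Mean CPM of the larval libraries, as log10 after adding 0.5, for 20 higher genes in LOC116939582 cells ("rule cells") and in the 7 comparison gates. For most genes the first column is the brightest and the collagen VI gate the next, and the tubule gate is dark except for LOC116948700, CRIP1 and S100A1.

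Over all barcodes, cell cycle genes stood higher in the members. Of 30 measured cell cycle genes 25 were above 0 in both libraries and 2 below, with a median log2 ratio of 0.46, against −0.06 over all measured genes, of which 4519 of 15147 were above 0 in both. Only UBE2C, the ubiquitin-conjugating enzyme of the anaphase-promoting complex, passed 2-fold in both, with 149 CPM in members and 60.1 in other barcodes of larva 1, and 137 and 61.2 in larva 2. This 1 gene of 30 stands beside 0.429% higher over all measured genes. PCNA, the sliding clamp of DNA replication, stood at 455 against 281 and 510.4 against 308 CPM, and TYMS, which makes thymidylate, at 62.4 against 36.2 and 55.7 against 34.3. The mitotic kinesin KIF23 stood at 50.7 against 24.2 and 42.8 against 21.5 CPM, past 2-fold in larva 1 and just short of it in larva 2. Summed over 31 cycle genes, members held 1308 CPM and other barcodes 804 in larva 1, and 1311 and 814 in larva 2. Weighting other barcodes to the depth of the members gave them 849.7 and 855 CPM. Of the comparison gates, cells with LOC116952351 held the most, 1012 and 1072 CPM, and the tubule gate the least, 173 and 169. The collagen VI gate held 926 and 912 CPM.

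The cycle genes were concentrated in some of the members. After thinning, 24.6% of members and 10.4% of other barcodes of larva 1 had 3 or more of the 31 genes, and 21.6% and 10.2% of larva 2, while 38.03% and 39.4% of members had none, against 58.7% and 59.1% of other barcodes. Applying the rule itself to thinned barcodes gave 25.4% against 10.95% and 23.1% against 10.7%. Free RNA was not removed from these counts. Cluster 6, described next, held 17.8% of members and 3.16% of other barcodes of larva 1, and 17.2% and 3.06% of larva 2. Without it the shares were 11.5% against 8.04% and 9.32% against 8.0%.

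The members were not 1 cluster. All called larval barcodes fell into 46 Leiden clusters on their variable genes, and 3 of these, numbered 2, 3 and 6, held 74.2% of the members of larva 1 and 76.5% of those of larva 2. Together with clusters 8, 16 and 19 they held 86.8% and 87.9%. Cluster 2 alone held 37.7% and 42.8% of the members and was the only one of these 6 in which most barcodes met the rule, 52.4% and 57.2%. Among the 15 nearest neighbours of a member, 44.5% were members in larva 1 and 46.1% in larva 2, against 7.52% and 7.07% among the neighbours of other barcodes. Clustering used variable genes of the same cells, and the rule genes were not taken out beforehand, so these shares describe the data and test nothing.

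Across these 6 clusters the members carried the rule genes in different proportions. Members in cluster 2 had the most LOC116939582, 767 CPM in larva 1 and 665 in larva 2, and the most HES1, 194 and 153 CPM. Other barcodes of cluster 2 held HES1 at 124 and 132 CPM. Members in cluster 3 had the most LOC116940515, 10022 and 9278 CPM, and LOC116940263, 1311 and 1297 CPM, and cycle genes in few cells (4.85% and 2.33% with 3 or more). Other barcodes of cluster 3 held similar levels, 9802 and 9581 CPM of LOC116940515 and 1458 and 1353 of LOC116940263. Members in cluster 6 had 3 or more cycle genes in 85.0% and 80.8% and UBE2C at 753 and 739 CPM. Other barcodes of cluster 6 were similar, with 82.4% and 80.5% and UBE2C at 657 and 698 CPM. Cycle genes were not confined to cluster 6, since 16.6% and 12.2% of members in cluster 2 and 19.1% and 20.7% of those in cluster 16 had 3 or more. UBE2C stood at 8.69 and 9.36 CPM in members of cluster 2. BAG2 was high in members of cluster 8, at 248 and 332 CPM, where 0% and 0.833% had 3 or more cycle genes. Other barcodes of cluster 8 held BAG2 at 228 and 174 CPM. Members of the small cluster 19 had little LOC116942455 for members, 136 and 37.8 CPM, no count of CCK, and the highest CCN2, 855 and 1108 CPM. Other barcodes of cluster 19 held CCN2 at 447 and 563 CPM.

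**Figure D4:**
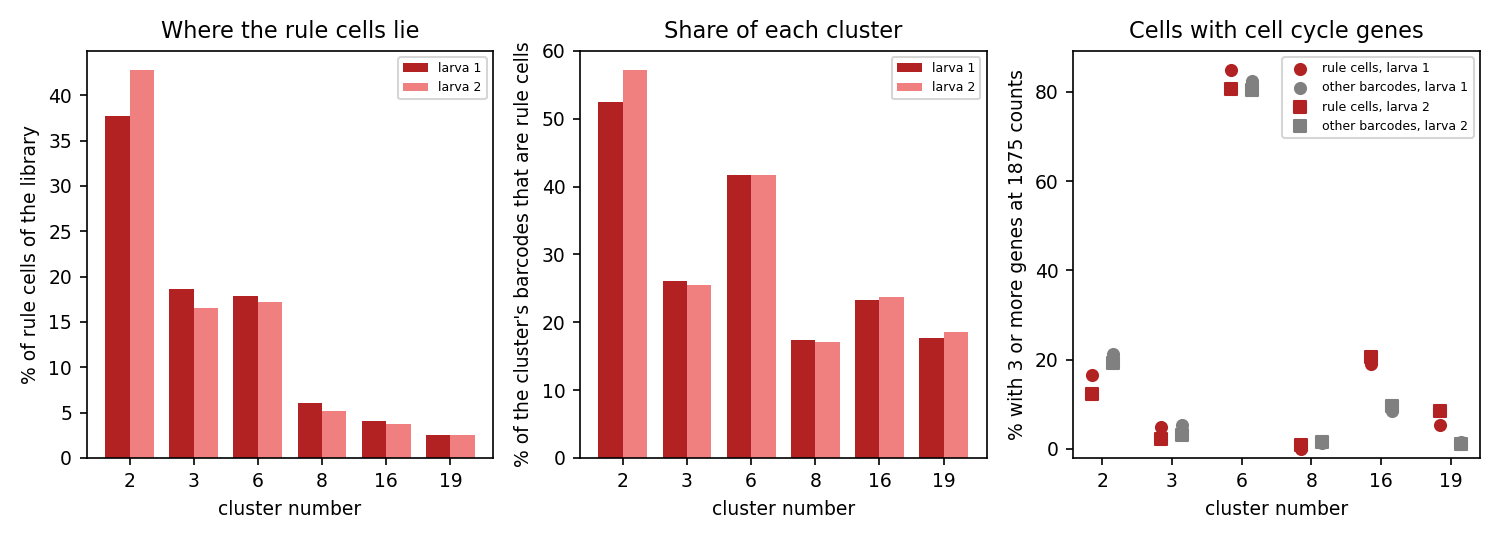
Left, percent of LOC116939582 cells ("rule cells") that lie in each of 6 clusters, by library; middle, percent of each cluster's barcodes that are such cells; right, percent of such cells and of other barcodes of the cluster with 3 or more cell cycle genes after thinning to the count minimum. Cluster 2 holds 37.7% and 42.8% of the cells, and cluster 6 is the only one where most barcodes carry cycle genes.

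Inside a cluster few genes separated the members from the other barcodes. In cluster 2, 8098 genes outside the rule could be measured, of which 0 were 2-fold higher in members of both libraries (0%) and 1 was lower (0.0123%). Of the 65 higher genes 61 could be measured there, 0 passed 2-fold, and their median log2 ratio was 0.09. In cluster 3, 1 of 37 did (LOC116943556), with a median of 0.20, beside 0.0508% of the 5909 genes measured. In cluster 6, 0 of 56 did, with a median of 0.31, and 13 of the 7367 genes measured there were lower (0.176%), 1 of them among the 773. LOC116939582 itself stood at 767 CPM in members and 391 in other barcodes of cluster 2 in larva 1, and at 665 and 336 in larva 2. After thinning 68.2% of members and 28.1% of other barcodes of cluster 2 had a count in larva 1, and 63.6% and 25.3% in larva 2. Of the further genes in cluster 2, LOC116940515 stood at 6349 CPM in members against 6469 in larva 1, and at 5865 against 6033 in larva 2. LOC116940263 stood at 738 against 872 and at 728 against 837, and the remaining further genes were higher in members there. Cell cycle genes were lower in members than in other barcodes of cluster 2, with 3 or more in 16.6% against 21.4% in larva 1 and 12.2% against 19.1% in larva 2. Their summed level was also lower in members of cluster 3, at 489 against 522 CPM and 478 against 533. The same held in cluster 6, at 3794 against 3879 and 3716 against 3878, though there the share with 3 or more was not lower. That share was 85.0% against 82.4% and 80.8% against 80.5%. In cluster 8 the summed level was lower too, at 215 against 271 and 265 against 293 CPM. Clusters 16 and 19 went the other way. Members held 1348 against 821 and 1453 against 855 CPM in cluster 16, and 585 against 372 and 951 against 288 in cluster 19.

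Several lists of housekeeping genes had small differences, mostly to 1 side. All 8 subunits of the CCT chaperonin, the folding chamber for actin and tubulin, were above 0 in both libraries, with a median log2 ratio of 0.41. CCT4 stood at 739.8 CPM in members and 525 in other barcodes of larva 1, and at 721 and 509.9 in larva 2. Of 38 proteasome genes 32 were above 0 in both and 3 below (median 0.28), and of 44 spliceosome genes 32 were above and 6 below (median 0.21). Of 71 cytosolic ribosomal protein genes 65 were above 0 in both and 4 below, with a median of only 0.09. Other folding genes were mixed: of 21 chaperones and BAG proteins 14 were above and 6 below (median 0.09), and of 39 genes of ER translocation and folding 18 were above and 15 below (median 0.05). Over all 15147 measured genes 4519 were above 0 in both libraries. No gene of these 6 groups was called in either direction, beside 0.429% higher and 5.1% lower over all measured genes. With so low a share for higher calls, their absence here says little. Lysosome genes lay on the other side, with 19 of 27 below 0 in both and a median of −0.18, beside 6899 below 0 in both among all 15147 measured genes.

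Pathway lists held single called genes. Each count below stands beside 0.429% higher and 5.1% lower over all measured genes. With lists this short the counts say nothing of a pathway as a group. Of 5 measured Notch pathway genes only HES1 was called, and the median of the 5 was 0.08. Of 16 measured Wnt pathway genes 1 was called, the secreted Wnt antagonist FRZB, which was lower at 1.77 CPM in members against 6.82 and 1.20 against 6.70. CTNNB1, the beta-catenin of Wnt signalling and of cell contacts, had log2 ratios of 0.62 and 0.54, with 361 and 318 CPM in members and 369 and 385 CPM in the cells with LOC116938687. Of 11 TGF-beta and BMP pathway genes none was called, with a median of 0.03. Of 10 matrix remodelling genes CCN2 and MMP17 were higher and SPARC and MMP2 lower. Among 8 transcription factors of gonad and mesoderm ZEB2 was lower, at 10.03 against 23.5 and 9.20 against 24.9 CPM. Both measured intermediate filament genes, VIM and LMNB1, were above 0 in both, VIM at 12.9 against 8.50 and 15.8 against 8.86 CPM.

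Some genes of the cells lie side by side in the gene table. Of 72 genes looked up, taken from the rule genes and the higher genes, 68 were placed, on 38 chromosomes. BAG2 is next to LOC116946618, KCNQ1 next to LOC116939931, LOC116938720 next to LOC116938722, and LOC116948699 next to LOC116948700, while LOC116943822 is 2 places from LOC116943825. Neighbours can be near-copies that share reads, and whether these do was not tested.

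The rule found far fewer barcodes after metamorphosis. It held for 11.2% and 11.3% of called barcodes in the larval libraries, against 113 of 30598 in the female transformer, 0.369% (exact 95% interval 0.304 to 0.444), and 275 of 40223 in the male transformer, 0.684% (0.605 to 0.769). LOC116939582 over all called barcodes stood at 96.0 and 86.2 CPM in larvae, against 4.59 in the female transformer and 1.78 in the male one. LOC116942455 stood at 163 and 138 CPM in larvae, against 6.58 and 1.012, and BAG2 at 27.3 and 21.2, against 0.790 and 0.229. With 1 library per sex after metamorphosis, stage, animal and library cannot be told apart, nor can fewer cells of a kind and less RNA per cell in these sums.

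What met the rule in the transformers had little LOC116942455 or BAG2. In the female transformer barcodes of the rule LOC116942455 had 4 counts (0.967 CPM) and BAG2 had 3. In those of the male transformer LOC116942455 had 7 counts (3.46 CPM) and BAG2 had 0. The male barcodes had the other further genes: LOC116940515 was detected in 100% of them (1861 CPM against 284 in other male barcodes), LOC116940263 in 75.6% (303 against 54.7) and LOC116943825 in 68% (436 against 43.3). In the female barcodes LOC116940515 was detected in 79.6%, at 117 CPM against 230 in other female barcodes. LOC116940263 was detected in 69.0% of the female barcodes (162 against 19.2 CPM) and LOC116943825 in 61.9% (54.4 against 50.6). The rule required further genes to be detected, and LOC116942455 and BAG2 were nearly absent from the barcodes of both transformers. Detection of the remaining further genes therefore follows largely from the rule, and their higher CPM follows from it in part. The female barcodes had a median depth of 22324 counts, against 4705 in other female barcodes, and 28.3% of them had 3 or more of the 11 listed germ cell genes, against 0.551%. The male barcodes had a median of 5526 counts, against 7483, and 15.6% against 57.1% had 3 of those germ cell genes.

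Few of the larval higher genes could be measured in the transformers. Of the 65 genes 11 had enough counts in the 275 male barcodes, where 8 were at least 2-fold higher than in other male barcodes and 0 lower, beside 5.17% higher over all 5530 genes measured there. They include LOC116948700 (614 CPM in barcodes of the rule against 75.03 in other barcodes), CCN2 (127 against 16.7), S100A1 (1242 against 200.3) and CRIP1 (489 against 84.0). In the female barcodes 28 could be measured, 6 were higher and 11 lower, beside 21.7% higher and 25.3% lower over all 7634 genes. EVPL (24.6 against 7.86 CPM) and UBE2C (186 against 14.0) were among the higher, and HES1 (9.91 against 33.2) and CRIP1 (289 against 985) among the lower. Of the 773 larval lower genes 146 could be measured in the male barcodes, 16 of them higher and 65 lower. Over all genes measured there 5.17% were higher and 18.9% lower. SPARC was among the 16, at 518 against 128 CPM. In the female barcodes 472 could be measured, 17 higher and 378 lower, beside the 21.7% and 25.3% over all genes. Only genes abundant in these few barcodes could be measured, so these counts say nothing of the others. Whether the male and female results differ was not tested.

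**Figure D5:**
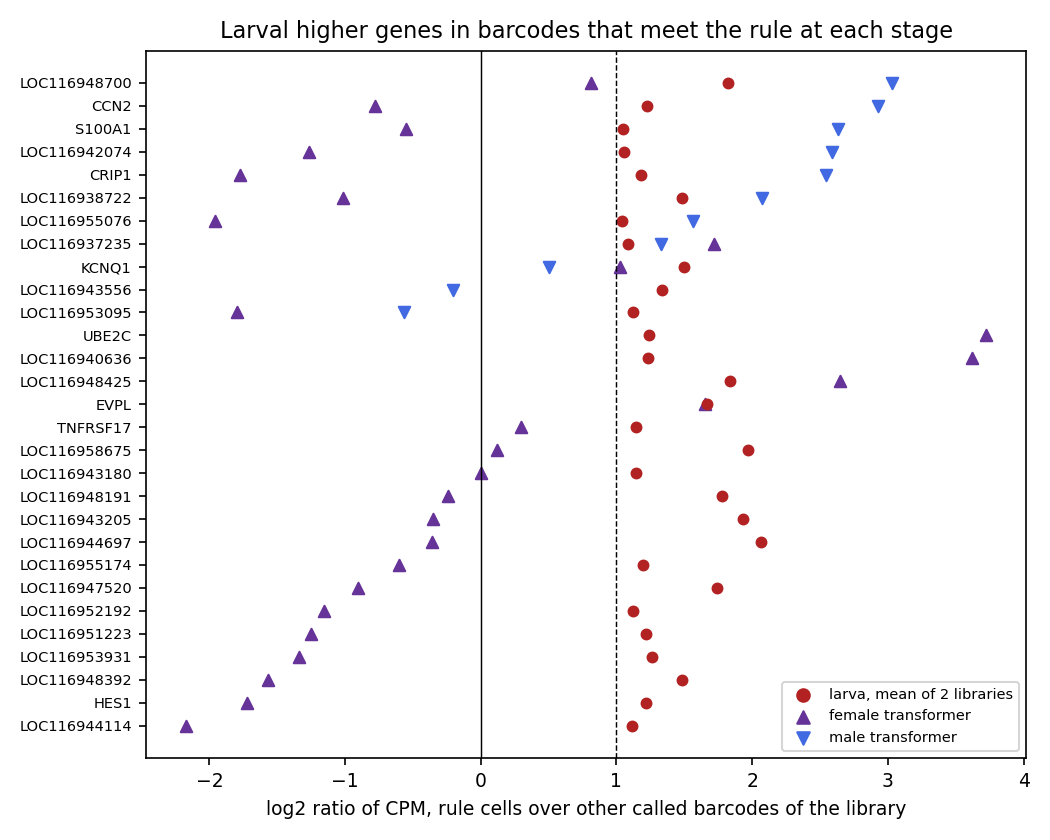
Log2 ratio of CPM, barcodes of the rule over other called barcodes of the same library, for the larval higher genes that could be measured in a transformer, as circles (mean of the larval libraries), upward triangles (female) and downward triangles (male), with lines at 0 and at 2-fold. Male points lie above 2-fold for 8 of 11 genes, and female points lie on both sides of 0.

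The counts of called genes depend on what the cells are set against. With other barcodes weighted to the depth of the members 54 genes were higher, 52 of them among the 65. With the tubule, collagen VI, endothelial and germ gates left out of the other barcodes 1004 genes were higher, 39 of them among the 65, and 798 lower. Of the 15 leading genes, LOC116939913 lost its call there, at a mean log2 ratio of 0.99.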

How the data were processed

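Single-cell 3′ RNA libraries of 4 gonad samples were used. Per the file headers the deposited matrices hold integer counts per feature and barcode, unfiltered for cells and not normalised by the authors as far as the values show; the aligner, annotation and build are not given in the sources used here, nor whether a count is a molecule or a read. LOC numbers were matched by gene ID to the table of UKy_Petmar_22M1.pri1.0 (11871 of 13987 matched, 678 given a symbol), used for names and neighbours. The 24 features without a gene name (3.14% to 4.96% of counts in the larval sets) were left out of totals.

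Counts were summed per library over members and over other called barcodes, scaled to CPM, and compared as log2 ratios with 0.5 counts added to each sum. No mitochondrial, doublet or free RNA filter was applied in the main values. The count minimum, also the depth of thinning, was 1875. Clusters came from scanpy 1.11.5 and leidenalg 0.10.2 (1991 variable genes, 30 components, 15 neighbours, resolution 1), without naming. The comparison gates take barcodes outside the members with, for endothelial, at least 2 of FLT1, FLT4, TIE1 and VWF, and with at least 1 count for the gates named by a gene; a barcode may be in several. The steps were tested on simulated sums with known 4-fold changes and counting error alone. That simulation had no spread between cells and does not cover changes near 2-fold.

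Genes named are those of the rule, the 15 with the largest and the 10 with the smallest log2 ratio by the library nearer to 0, called members of the lists, and called genes with a symbol. Genes just short of 2-fold, cell cycle examples, CCT4, DDX4 and MAEL were picked after their values were seen. The members, lists and rules were chosen with earlier results of these data known. Alternatives changed the cell rule, depth, scaling (TMM of edgeR 4.0.16), filter, added count, fold and comparison set, and left out doublets, shared barcodes or a library.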

Additional observations from a re-analysis of the deposited data

How the results depend on the processing

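The share of members moved with the rule: 14.8% with a count minimum 2 times as high, 9.92% with 3 further genes, 7.51% with 2 counts of LOC116939582 and 6.94% with the rule on thinned barcodes; without either library it was 11.2% to 11.3%. The 65 higher genes became 137 with 2 counts of LOC116939582, 111 with thinned barcodes, 106 with the rule itself on thinned barcodes, 145 without the low-count filter, 1 at 4-fold, 1004 without the 4 gates among other barcodes, 221 with the members of cluster 2 alone (42 of the 65 among them), and 92 to 101 with 1 library. The 773 lower genes became 260 at 4-fold, 1824 with members of cluster 2, 1477 without the 10 highest barcodes of each gene, and 903 to 1047 with 1 library. The median of all genes was −0.31 with cluster 2 and −0.34 without the 10 highest barcodes, which moves the lower counts. Other settings, TMM (77 higher, 718 lower) and leaving out the highest 5% of doublet scores (66 and 804) included, stayed within 1.5 times. Of 622 values of 38 named genes 4 changed sign: LOC116945904 was −0.051 with 3 further genes and −0.83 without its 10 highest barcodes, and CDCA3 (−2.58) and UBE2C (−2.74) in members of cluster 2; the cause was not tested. Depth weighting, the thinned rule, cluster 2 and the 10 highest barcodes were added after the data were seen. No test was made because the members were chosen on the counts compared. Each ratio sets members against other barcodes within 1 library. A single count decides membership for 33.6% and 33.1% of the members, and lists found in part by symbol cannot show which other markers are present.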
